A study of Mus musculus with 4 samples.

Results

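The 10 genes described here, Serpinf1, Cpxm1, Adamtsl1, Adamts15, Fn1, Sparc, Fbn1, Dcn, Lum and Bgn, encode secreted proteins of the fibroblast extracellular matrix other than collagens. They are 10 of 16785 genes obtained by summing the RefSeq transcripts of each gene symbol, in small RNA libraries from sperm of the cauda epididymis, where mature sperm are stored. Sperm came from adult C57BL/6 mice of either the extra cross to wildtype (2 mice) or the original cross (2 mice), and each mouse gave 1 library. By its title, the study concerns sperm susceptible or not to epigenetic silencing of a LoxP site, the short target sequence of Cre recombinase. Which cross was susceptible, and what alleles either cross carried, is not given in the labels, and the crosses are therefore called extra and original throughout. Values are in RPM, the read values as the authors normalized them to library size, and come as a pair of tables, each with 1 extra-cross and 1 original-cross library of the same replicate number.

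The genes were selected on the RPM values of both crosses, which were already known when they were named. The difference between the crosses is therefore given as a description of these 4 libraries, with no test on the 10 genes.

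The extracellular matrix of connective tissue is built by fibroblasts. Fibronectin and fibrillin form fibrils that cells and growth factors bind, the small leucine-rich proteoglycans decorin, lumican and biglycan sit on collagen fibrils and set their spacing, and secreted enzymes and inhibitors process these proteins. In the epididymis, fibroblasts and smooth muscle surround the duct. Mature sperm are largely silent in transcription.

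The levels of the 10 genes ranged from 10.05 RPM for lumican to 262 RPM for Sparc, averaged over the 4 libraries, and all 10 had a mean of at least 10 RPM, the minimum for the analysis across genes. Adamts15 and Lum reached this minimum only through the original cross, where their means are higher. Adamts15 was above 10 RPM only in original-cross replicate 1 (31.6 RPM), and Lum only in original-cross replicate 2 (13.5 RPM). In both extra-cross libraries 8 of the 10 genes had a lower value than in either original-cross library. The exceptions were Fn1 and Lum, whose ranges overlapped, and the 8 include Adamts15. Among all 477 genes above the minimum, 54.1% were also lower in the extra cross with no overlap and 4.4% were higher with no overlap. In both tables the extra-cross library had the lower value for 9 of 10 genes, all but Lum, as it had for 71.5% of all tested genes, while for 9.22% it had the higher value in both. The median log2 fold change, extra over original on the log2(RPM + 1) scale, was -0.83 over the 10 genes and -0.50 over all 477 genes. Summed over all 16785 genes, RPM came to 81160 and 82239 in the extra-cross libraries and to 126732 and 96838 in the original-cross libraries, and each gene below is also given relative to that median. In limma with Benjamini-Hochberg adjustment 0 of the 477 genes passed at 0.05 (0% in either direction), the lowest adjusted p was 0.165, and 114 genes had an unadjusted p below 0.05, of which 108 were lower. With 1 library left out, the median log2 fold change over the genes tested was -0.32 without original replicate 1 and -0.66 without original replicate 2. It was -0.55 without extra replicate 1 and -0.45 without extra replicate 2. Each of these fits leaves 1 cross with a single library, which is assumed to vary like the pair of libraries of the other cross. Genes passing in them are therefore not counted.

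**Figure D1:**
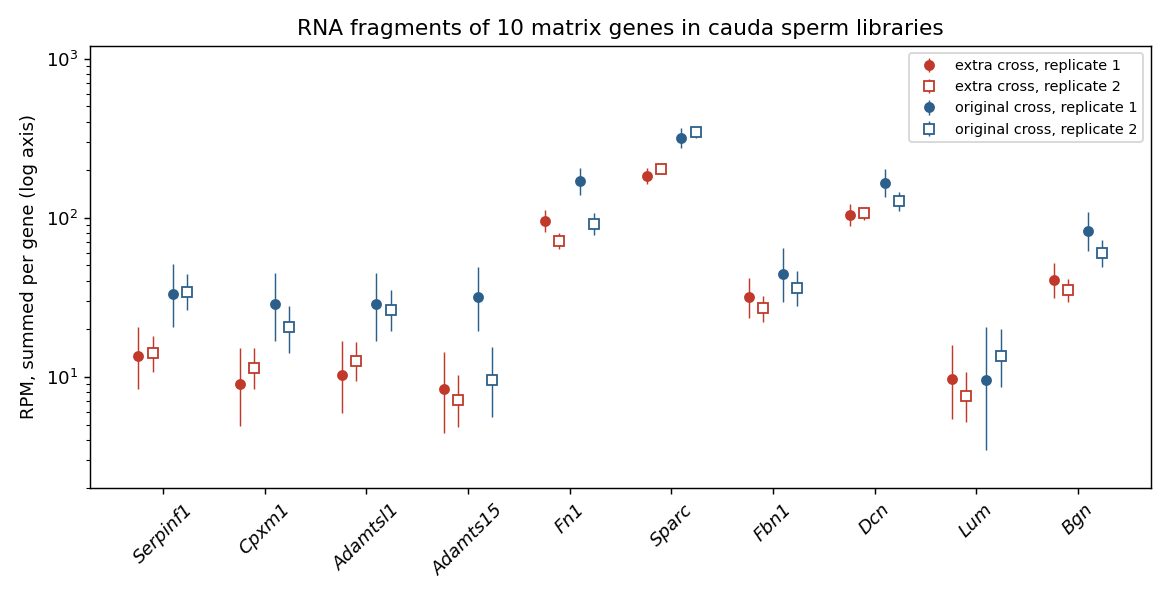
RPM of each gene in the 4 libraries on a log axis, with extra-cross libraries left of original-cross libraries and bars for the exact Poisson 95% interval of the reads, which covers counting error only. Sparc lies highest in every library, between 184 and 345 RPM, and the original-cross points lie above the extra-cross points for 8 of the 10 genes.

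Reads that matched several transcripts were divided among them in the deposited tables, so that summing the transcripts of a gene returned reads. Of the 40 gene values, 10 genes in 4 libraries, 33 were whole reads within 0.02. The 10 genes together held 788 and 2079 reads in extra-cross replicates 1 and 2 and 576 and 1359 reads in original-cross replicates 1 and 2. In original-cross replicate 1 the RefSeq rows were on a scale 26.2 times lower than its other classes and were multiplied by that ratio. The ratio rests on 0.0603 RPM as the value of 1 read, and 67.6% of the gene sums up to 20 reads in that library were then whole. Had the commonest value, 0.0302 RPM, been 1 read, sums of an odd number of reads would fall midway between whole reads on the scale used here. Midway values made up 6.67% of the sums in that library and 5.53% to 7.04% in the other 3 libraries. Depth was lowest in that library, where 1 read is worth 1.58 RPM, against 0.561 RPM in original-cross replicate 2 and 0.642 and 0.238 RPM in extra-cross replicates 1 and 2.

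Before single genes are described, the labelled cell type was set against its defining transcripts. Of 25 transcripts of sperm and spermatids, 21 were listed, with a sum of 10.1 and 9.81 RPM in the extra cross and 7.90 and 15.5 RPM in the original cross. The protamine Prm1, which packs sperm DNA, had 0.642 and 0.951 RPM in the extra cross and 0 and 2.24 RPM in the original cross, and 0 reads in original-cross replicate 1 allow up to 4.74 RPM (3 reads). The most abundant of the list, the tail protein gene Odf2, had 2.63 and 2.61 RPM in the extra cross and 0 and 1.16 RPM in the original cross. The sum of the 10 matrix genes was 506 and 494 RPM in the extra cross and 910 and 763 RPM in the original cross, which is 50.1 and 50.4 times the sperm list in the extra cross and 115 and 49.3 times in the original cross. Genes of the sperm list above 0 numbered 12 and 17 in the extra cross and 4 and 15 in the original cross. As 1 read is worth 1.58 RPM in original-cross replicate 1, the ratio of 115 rests on very few sperm-list reads. In such bulk libraries fewer cells of a type and less RNA per cell cannot be told apart.

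Promoters are shown for 3 genes, Serpinf1 and Cpxm1 for the largest differences described below among the genes with a promoter entry, and Bgn because its profile over the 4 libraries lay closest to the mean of the 10 genes (distance 0.14). Each runs from 250 bases before to 50 bases after the gene's start, 5′ to 3′ on the gene's strand, from RefSeq, build GRCm38.p6. The Serpinf1 promoter is chr11:75422574-75422873 (minus strand), that of Cpxm1 is chr2:130397580-130397879 (minus strand) and that of Bgn is chrX:73483351-73483650 (plus strand). Capitals mark exact matches on either strand to the GC box GGGCGG, the CCAAT box CCAAT, the TATA box TATAAA or the AP-1 site TGANTCA.
Serpinf1: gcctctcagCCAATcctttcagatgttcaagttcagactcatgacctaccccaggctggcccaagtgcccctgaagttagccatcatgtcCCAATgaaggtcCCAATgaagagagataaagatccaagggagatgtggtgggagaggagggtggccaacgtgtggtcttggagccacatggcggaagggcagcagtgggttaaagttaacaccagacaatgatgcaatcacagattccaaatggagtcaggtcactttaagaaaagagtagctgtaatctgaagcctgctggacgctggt
Cpxm1: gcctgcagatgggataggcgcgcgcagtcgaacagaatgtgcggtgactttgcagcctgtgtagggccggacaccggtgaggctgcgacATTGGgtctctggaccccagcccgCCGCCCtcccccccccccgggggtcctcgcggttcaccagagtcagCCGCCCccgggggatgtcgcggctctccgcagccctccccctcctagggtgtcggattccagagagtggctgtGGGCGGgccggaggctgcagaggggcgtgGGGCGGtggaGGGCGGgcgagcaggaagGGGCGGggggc
Bgn: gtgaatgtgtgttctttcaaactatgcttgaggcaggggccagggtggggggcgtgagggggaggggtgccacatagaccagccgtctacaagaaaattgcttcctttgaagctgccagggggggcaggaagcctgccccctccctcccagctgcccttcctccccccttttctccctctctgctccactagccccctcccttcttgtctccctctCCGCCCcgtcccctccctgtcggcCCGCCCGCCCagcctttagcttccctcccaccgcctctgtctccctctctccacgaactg

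Of the 10 genes, 5 had an entry in the promoter table. The Cpxm1 promoter held 6 GC boxes and 1 CCAAT box, the Bgn promoter held 3 GC boxes, of which the last 2 overlap, and the Serpinf1 promoter held 3 CCAAT boxes. The Fbn1 promoter held 1 GC box and the Sparc promoter matched none of the 4 motifs. In all, 3 of these 5 promoters held a GC box and 2 of 5 a CCAAT box, against 35.7% and 37.4% of 32851 promoters of the same length. None of the 5 held TATAAA or TGANTCA, which are in 13.6% and 7.81% of promoters. G and C made up 72.7% of the Cpxm1 promoter, 63.7% of that of Bgn and 50.7% of that of Serpinf1, against a median of 52.7%.

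Of the small leucine-rich proteoglycans, decorin (Dcn, chromosome 10, 97479500 to 97518163, plus strand, GRCm38), which binds collagen fibrils and growth factors of the transforming growth factor beta family, had 104 and 107 RPM in the extra cross and 166 and 127 RPM in the original cross. The groups did not overlap, but the original-cross libraries stood further apart than the highest extra-cross and the lowest original-cross library. Its log2 fold change was -0.46 ± 0.33 (SE), which is 0.04 above the median of all tested genes, and -0.67 and -0.25 in the tables of replicates 1 and 2. Without original-cross replicate 1 it was -0.27. Here and below, SE is the moderated SE of limma, which draws on the spread of all tested genes, not on that of the gene alone. Biglycan (Bgn, chromosome X, 73483601 to 73495936, plus strand), a close relative that carries a pair of glycosaminoglycan chains, had 40.4 and 34.95 RPM in the extra cross and 82.2 and 59.5 RPM in the original cross. Both extra-cross values lay below both original-cross values. The log2 fold change was -0.88 ± 0.33 (SE), 0.38 below the median of all tested genes, and was -1.005 and -0.75 in the 2 tables.

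Lumican (Lum, chromosome 10, 97565501 to 97572703, plus strand), a keratan sulphate proteoglycan known for the transparency of the cornea, was the least abundant of the 10. It had 9.63 and 7.61 RPM in the extra cross and 9.48 and 13.5 RPM in the original cross, and the crosses overlapped. These values stand for 15 and 32 reads in the extra cross and for 6 and 24 reads in the original cross. The exact Poisson 95% interval of original-cross replicate 1 ran from 3.48 to 20.6 RPM and held all 3 other values. The log2 fold change was 0.02 in the table of replicate 1 and -0.75 in that of replicate 2, with -0.36 ± 0.46 (SE) over both, 0.13 above the median of all tested genes, and ran from -0.60 without original-cross replicate 1 to -0.13 without original-cross replicate 2. Lum and Dcn are neighbours on chromosome 10. The ratio of Lum to Dcn in RPM was 0.0926 and 0.0714 in the extra cross and 0.0571 and 0.106 in the original cross, so it did not separate the crosses.

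Among the glycoproteins, Sparc (chromosome 11, 55394159 to 55420080, minus strand), a calcium-binding protein that assists the handling of collagen outside the cell, was highest in every library. It had 184 and 202 RPM in the extra cross and 318 and 345 RPM in the original cross, from 286 and 849 reads in the extra cross and 201 and 615 reads in the original cross. In RPM the crosses were well apart and the replicates of each cross lay close together. The log2 fold change was -0.78 ± 0.32 (SE), or -0.28 relative to the median of all tested genes, with -0.79 in replicate 1 and -0.77 in replicate 2. Sparc alone made up 36.3% and 40.9% of the summed RPM of the 10 genes in the extra cross and 34.9% and 45.2% in the original cross.

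Fibronectin (Fn1, chromosome 1, 71585473 to 71653280, minus strand), the fibril-forming adhesion protein that integrins bind, had 95.6 and 71.3 RPM in the extra cross and 169 and 91.4 RPM in the original cross. Extra-cross replicate 1 lay above original-cross replicate 2, so the groups overlapped, while in each table the extra-cross library was the lower. The log2 fold change was -0.59 ± 0.39 (SE), -0.09 relative to the median of all tested genes, with -0.82 and -0.35 in replicates 1 and 2. It was -0.15 without original-cross replicate 1 and -1.02 without original-cross replicate 2. Fn1 over Sparc was 0.520 and 0.353 in the extra cross and 0.532 and 0.265 in the original cross, higher in replicate 1 than in replicate 2 in both crosses. Fibrillin-1 (Fbn1, chromosome 2, 125300594 to 125506485, minus strand), the backbone of microfibrils, had 31.5 and 26.9 RPM in the extra cross and 44.2 and 35.9 RPM in the original cross. The groups did not overlap, and the log2 fold change of -0.44 ± 0.31 (SE) lay 0.05 above the median of all tested genes, with -0.48 and -0.41 in the 2 tables.

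Of the ADAMTS group, Adamtsl1 (chromosome 4, 85513852 to 86428390, plus strand) encodes an ADAMTS-like glycoprotein that lacks the protease domain of its relatives. It had 10.3 and 12.6 RPM in the extra cross and 28.4 and 26.4 RPM in the original cross, with no overlap. Its log2 fold change was -1.20 ± 0.30 (SE), -0.70 relative to the median of all tested genes, and -1.39 and -1.01 within the tables of replicates 1 and 2. Adamts15 (chromosome 9, 30899155 to 30922452, minus strand), a metalloprotease that cleaves proteoglycans such as versican and aggrecan, had 8.35 and 7.13 RPM in the extra cross and 31.6 and 9.54 RPM in the original cross. Original-cross replicate 1, with 20 reads, stood far above the other 3 libraries, which differed little. The log2 fold change of -1.09 ± 0.52 (SE) was -1.80 in replicate 1 and -0.37 in replicate 2, and it was -0.27 without original-cross replicate 1 and -1.90 without original-cross replicate 2. Over both tables the log2 fold change was -0.59 relative to the median of all tested genes. The value in replicate 2 equals the median of all tested genes in that table.

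The remaining pair are secreted proteins with other tasks. Serpinf1 (chromosome 11, 75410029 to 75422623, minus strand) encodes pigment epithelium-derived factor, a serpin that does not inhibit proteases, binds collagen and is known for restraining blood vessel growth. It had 13.5 and 14.1 RPM in the extra cross and 33.2 and 34.2 RPM in the original cross. Replicate 2 over replicate 1 was 1.04 in the extra cross and 1.03 in the original cross, and the crosses did not overlap. The log2 fold change was -1.23 ± 0.29 (SE), -0.74 relative to the median of all tested genes, and -1.24 and -1.23 in the 2 tables. Cpxm1 (chromosome 2, 130390775 to 130397629, minus strand), a carboxypeptidase-like protein held to lack enzyme activity, had 8.99 and 11.3 RPM in the extra cross and 28.4 and 20.4 RPM in the original cross. The groups did not overlap, and the log2 fold change was -1.18 ± 0.32 (SE), -0.68 relative to that median, with -1.56 and -0.79 in replicates 1 and 2.

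By role, the log2 fold change ranged from -1.23 to -1.18 for the 2 other secreted proteins, from -1.20 to -1.09 for the 2 ADAMTS genes, from -0.78 to -0.44 for the 3 glycoproteins and from -0.88 to -0.36 for the 3 small leucine-rich proteoglycans. The 4 genes of the first 2 roles are also among the 5 with the fewest reads, and the roles were not tested against each other. Under scaling by median ratios, which moves the median of all tested genes to 0.02, 4 of the 10 genes (Serpinf1, Cpxm1, Adamtsl1 and Bgn) were lower in the extra cross with no overlap, beside 21.6% of all 477 genes. Sparc then overlapped, at 214 and 247 in the extra cross and 237 and 316 in the original cross. On that scale the log2 fold changes of Fbn1, Dcn and Lum were positive (0.07, 0.07 and 0.11).

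**Figure D2:**
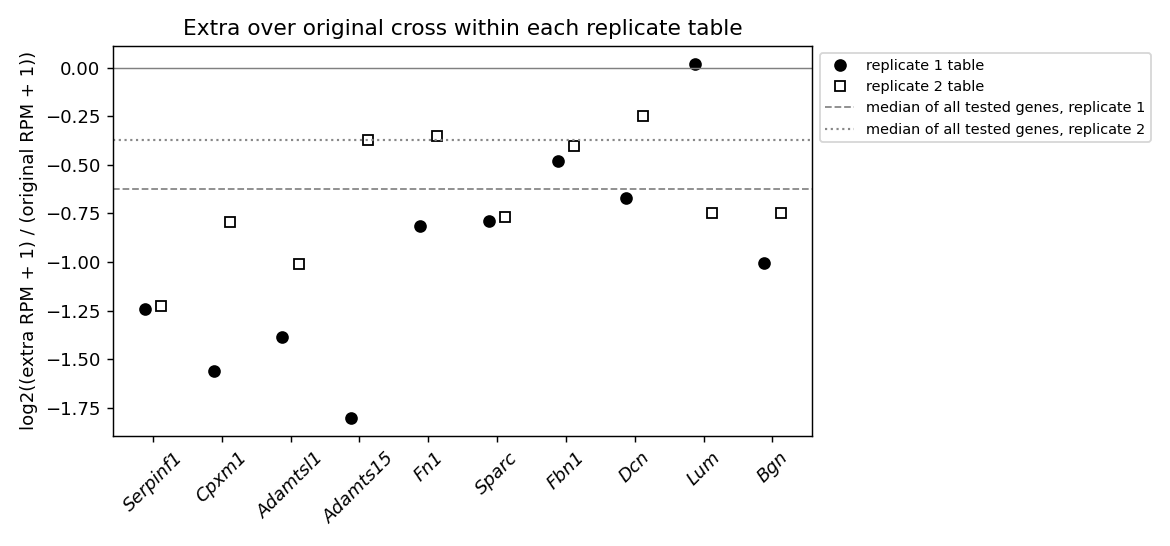
Log2 ratio of extra over original cross on the RPM + 1 scale for each gene, within the table of replicate 1 (filled) and of replicate 2 (open), with the medians of all 477 tested genes as dashed (-0.62) and dotted (-0.37) lines. Serpinf1 lies at -1.24 and -1.23, Adamts15 spreads from -1.80 to -0.37, and Lum lies at 0.02 in replicate 1.

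Per length the order of the genes differed from that in RPM. RPM was divided by the length of the longest GENCODE transcript paired with each gene's RefSeq entries, from 1758 bases for Dcn to 9847 bases for Fbn1. Sparc averaged 114 RPM per kb over the 4 libraries, Dcn 71.6, Bgn 22.4, Serpinf1 13.0, Fn1 12.8, Cpxm1 7.31, Lum 4.10, Fbn1 3.52, Adamtsl1 2.48 and Adamts15 2.39 RPM per kb. Sparc lay above Dcn and Dcn above Bgn in each of the 4 libraries, at 79.8 and 87.8 RPM per kb for Sparc against 59.2 and 60.6 for Dcn in the extra cross. The neighbours Serpinf1 and Fn1, Cpxm1 and Lum, Lum and Fbn1, and Adamtsl1 and Adamts15 changed places between libraries, and the other neighbours kept their order in all 4. Among the 457 tested genes with a length, Sparc ranked 47 and Dcn 56 per length.

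**Figure D3:**
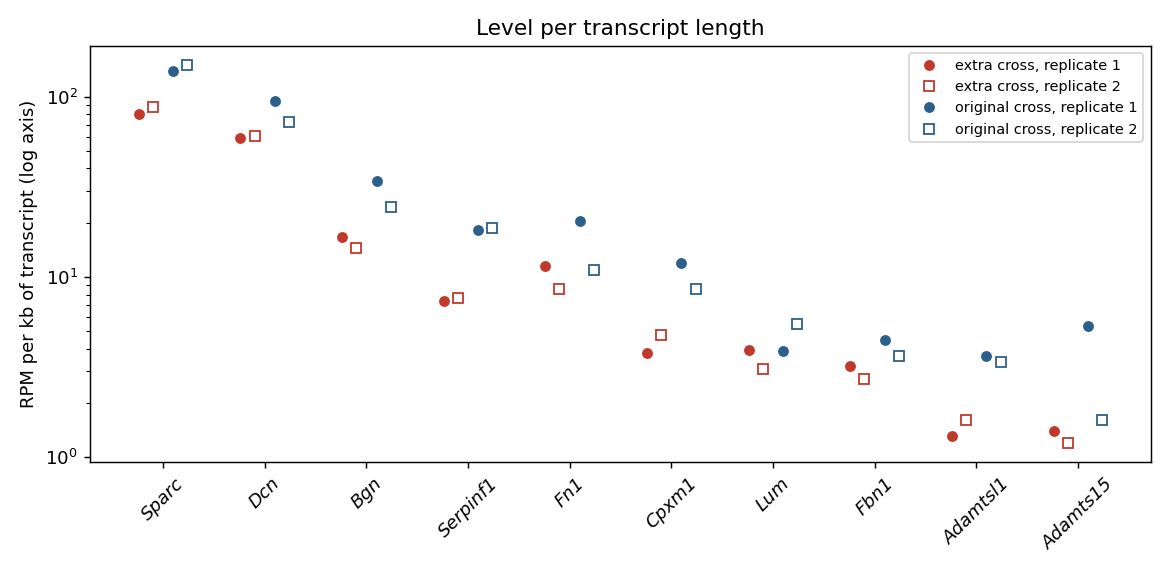
RPM per kb of transcript for each gene, ordered by its mean, with extra-cross points left of original-cross points on a log axis. Sparc (mean 114) and Dcn (71.6) lie above Bgn (22.4) in all 4 libraries, while Adamtsl1 (2.48) and Adamts15 (2.39) share the low end.

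The number of transcripts among which the reads of a gene were divided ranged from 1 for Serpinf1, Cpxm1 and Lum to 13 for Fn1. For Dcn the transcript with more reads had 81.5 and 231 reads in the extra cross and 54.5 and 116.5 reads in the original cross, and the other had 80.5 and 217 reads in the extra cross and 50.5 and 109.5 reads in the original cross. Reads found in only one Dcn transcript were not counted, so the share of reads in common sequence is not known. Both Sparc transcripts had 143 reads in extra-cross replicate 1 and 100.5 reads in original-cross replicate 1. The 13 Fn1 transcripts differed by at most 1.42 reads in any library. As reads were divided among transcripts, this gap does not count the reads that fall in only some of them. The splice forms were not compared. For Adamts15 the transcript with most reads had 5.67 and 14.7 reads in the extra cross and 8.67 and 8.33 reads in the original cross. Exons of 3 of the genes overlap another GENCODE gene, Adamtsl1 with Sh3gl2 on the same strand, and Fn1 with Apol7d and Fbn1 with Gm9913 on the opposite strand. Where exons of Adamtsl1 and Sh3gl2 coincide, their reads cannot be told apart. For the pairs on opposite strands the same holds where exons coincide, unless counting used the strand, which the sources used here do not say. Overlap was checked against the whole span of the other gene, not against its exons.

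Other matrix genes were grouped in lists by their known roles. Of 13 further small leucine-rich proteoglycans 3 were above the minimum, Fmod, Prelp and Ogn, and 0 passed in either direction. Fibromodulin, Fmod, had 44.9 and 31.9 RPM in the extra cross and 56.9 and 76.9 RPM in the original cross, whereas Prelp had 13.5 and 17.6 RPM in the extra cross and 15.8 and 17.4 RPM in the original cross. Of 50 further glycoproteins and elastic fibre genes 21 were above the minimum, 0 passed in either direction, and their median log2 fold change was -0.88. The tenascin Tnxb was at 47.1 and 61.1 RPM in the extra cross and at 97.5 and 102 RPM in the original cross, while Igfbp5, which binds insulin-like growth factors, had 65.5 and 44.9 RPM in the extra cross and 65.3 and 45.4 RPM in the original cross. Of 23 further ADAMTS genes only Adamts2 and Adamts5 were above the minimum, and neither passed. Adamts2, the procollagen N-proteinase, had 26.96 and 24.97 RPM in the extra cross and 50.6 and 58.3 RPM in the original cross, and Adamts5 had 13.5 and 8.32 RPM in the extra cross and 9.48 and 9.54 RPM in the original cross. Of 32 genes for other matrix enzymes and secreted proteins 10 were above the minimum, with a median of -0.85, and 0 passed. Among them Cpxm2, a relative of Cpxm1, had 21.2 and 24.6 RPM in the extra cross and 47.4 and 49.7 RPM in the original cross.

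The 10 genes were also set beside the fibrillar and type VI collagens, of which 10 of 12 were above the minimum, and their median log2 fold change was -1.10. The summed RPM of the 10 genes was 0.371 and 0.307 of the collagen sum in the extra cross and 0.277 and 0.195 of it in the original cross. For single genes, Sparc over Col1a1 was 0.418 and 0.314 in the extra cross and 0.255 and 0.203 in the original cross, and Dcn over Col1a1 was 0.237 and 0.166 in the extra cross and 0.133 and 0.0746 in the original cross. In each table these ratios were the higher in the extra-cross library, and Col1a1 itself had 439 and 643 RPM in the extra cross and 1244 and 1700 RPM in the original cross. As the 10 genes were named from this contrast the ratios are given without a test. Of the basement membrane list 9 of 14 genes were above the minimum and 0 passed, with a median of -0.84.

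Lists of other cells were set beside the matrix genes. The 13 fibroblast markers had summed values of 90.6 and 88.3 RPM in the extra cross and 166 and 124 RPM in the original cross, and all 3 above the minimum, Pdgfra, Vim and Cd34, were lower in the extra cross with no overlap, as were 54.1% of all tested genes. The fibroblast markers below the minimum were mixed, some lower in the extra cross with no overlap and others overlapping. Pdgfra, a receptor that marks fibroblasts, had 26.3 and 24.97 RPM in the extra cross and 56.9 and 30.9 RPM in the original cross. The sum over 12 smooth muscle markers was 55.7 and 74.2 RPM in the extra cross and 100.3 and 101 RPM in the original cross. Over 9 endothelial markers it was 13.7 and 11.8 RPM in the extra cross and 42.0 and 22.0 RPM in the original cross. For 14 blood and immune markers the sum was 131 and 83.7 RPM in the extra cross and 189 and 145 RPM in the original cross. Cd74 and Lyz2 made up most of this sum in each library. Flna was the largest part of the smooth muscle sum, at 24.4 and 32.8 RPM in the extra cross and 47.9 and 47.3 RPM in the original cross. In both lists some markers were lower in the extra cross with no overlap, and others overlapped, such as Acta2 and Ptprc. In the extra cross the sum of the 27 markers of epididymal epithelium was 2.05 times that of the original cross in replicate 1 and 1.07 times in replicate 2, with 397 and 364 RPM in the extra cross and 193 and 340.3 RPM in the original cross, and all 8 above the minimum had a positive log2 fold change (median 0.60). Of these 8, 4 were higher in the extra cross with no overlap, beside 4.4% of all tested genes, and the median was 1.00 in the table of replicate 1 and 0.20 in that of replicate 2. Gpx5, the most abundant of them, had 141 and 89.0 RPM in the extra cross and 74.3 and 118 RPM in the original cross. In replicate 2 Gpx5, Lcn9 and Defb20 were lower in the extra cross than in the original cross. In original-cross replicate 1 Lcn9 and Defb20 each had 1.58 RPM, the value of 1 read. None of the markers above the minimum passed in limma. The part of these cells in the levels of the 10 genes was not tested.

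**Figure D4:**
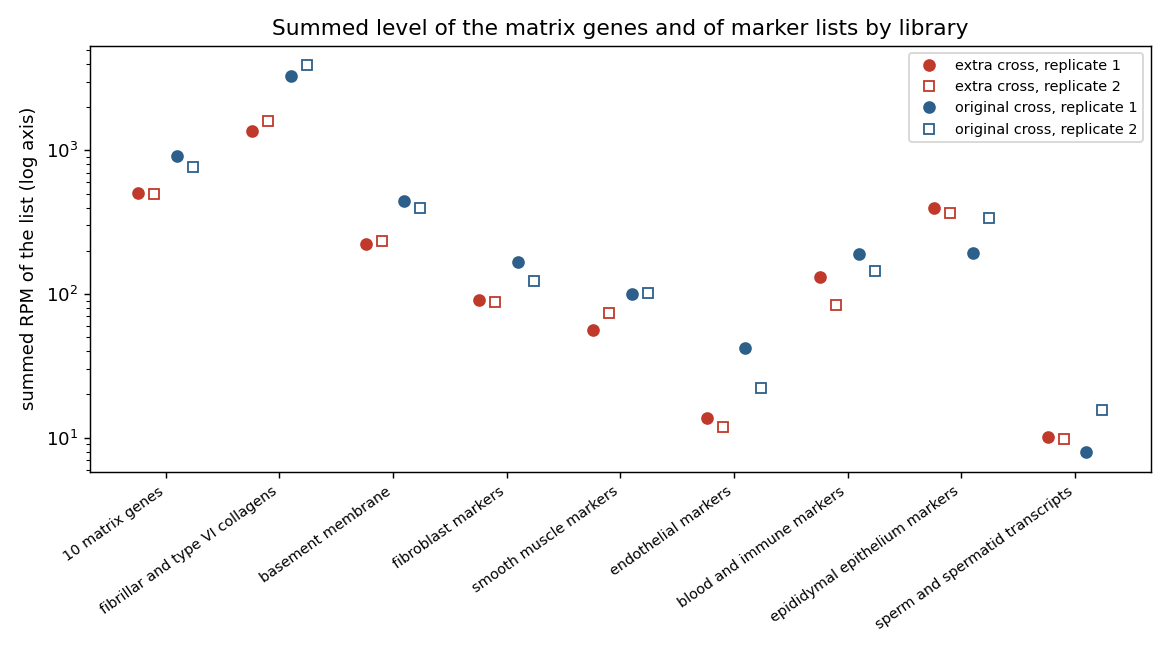
Summed RPM of the 10 matrix genes and of 8 other lists in the 4 libraries, on a log axis, with extra-cross points left of original-cross points. The matrix genes (506 and 494 RPM in the extra cross, 910 and 763 RPM in the original cross) and the collagens lie lower in the extra cross, the epididymal epithelium markers lie higher in it (397 and 364 RPM, against 193 and 340.3 RPM in the original cross), and the sperm transcripts stay at or below 15.5 RPM in all libraries.

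Outside the 10 genes, the profile over the 4 libraries that lay nearest to their mean, by Euclidean distance of the centred log2(RPM + 1) values among tested genes, was that of Lrp1, a receptor that takes up many secreted proteins, at a distance of 0.05. It had 139 and 138 RPM in the extra cross and 284 and 213 RPM in the original cross. Heg1 (0.06), Zfp36l2 (0.07) and Nid1 (0.08) followed. The 10 genes themselves lay at 0.14 (Bgn) to 0.94 (Adamts15) from their mean, and the next farthest was Lum at 0.76. With 4 libraries such a likeness rests on few values.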

How the data were processed

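Small RNA of 4 sperm libraries, 2 per cross, was read from the deposited tables. Tools named in the submitters' processing notes are Bowtie 1.1.2 and CASAVA 1.8.2, with build mm10 and no stated role, and per the file headers the authors gave values in RPM. For trimming, the strand rule and the total behind RPM the sources used here give nothing. Separate animals were used per the labels' protocols. Features absent from a table were set to 0 there. Of 68434 RefSeq transcripts, 81.7% matched a symbol in the RefSeq gene table (GRCm38.p6), and RPM were summed to 16785 genes. The matched share of RPM was smaller. These genes held 81160 of 131739 and 82239 of 136016 RefSeq RPM in extra-cross replicates 1 and 2. In original-cross replicates 1 and 2 they held 126732 of 207665 and 96838 of 155300 RPM, after the rescaling. Original-cross replicate 1 was rescaled to its other classes. Tested genes had a mean of at least 10 RPM. limma 3.58.1 (R 4.3.3) was fitted with a variance trend to log2(RPM + 1), which understates folds of low genes, with cross as the only term, and checked on simulated data. Lengths and overlaps came from GENCODE M21. Tables were made with Python 3.11.15 and pandas 2.3.3, and plots with matplotlib 3.10.9.

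The 10 genes and the lists were chosen with earlier results of these data known. Named beside them were up to 4 of the most abundant genes of each list and the 5 genes nearest in profile, of which 1 is not reported here. Alternatives covered scaling, rescaling, the minimum, the pseudocount, the variance trend, a replicate block, single transcripts and each library left out. Counting intervals cover counting error only.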

Additional observations from a re-analysis of the deposited data

How the results depend on the processing

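The number of genes passing in limma was 0 under each scaling, minimum, pseudocount and variance setting and with the replicate block, and 1 to 41 with 1 library left out. The 41 came without original replicate 2. The labels do not say that a replicate number marks a pair. The differences between replicates 1 and 2 in the extra and the original cross correlated at 0.33 across the 477 genes, which are not independent replicates, and the block gave 0 calls with 131 unadjusted p below 0.05, against 114 without it. The median log2 fold change of the 10 genes (-0.83) was -0.30 under median-ratio scaling, -0.39 scaled to the RefSeq sum, -1.33 with the other candidate for 1 read and 1.198 with no rescaling, and -1.07 to -0.62 with 1 library left out. Their summed level (-0.74 on the log2 scale) was -0.21, -0.30, -1.37 and 0.33 under the same 4 settings and -0.86 to -0.61 with 1 library left out. Median-ratio scaling turned Fbn1 (0.073), Dcn (0.068) and Lum (0.11) positive, and scaling to the RefSeq sum turned Lum positive (0.030). Both scalings divide out a shift of all RefSeq genes. With no rescaling, which leaves original-cross replicate 1 on its lower scale, all 10 were positive: Serpinf1 0.73, Cpxm1 0.73, Adamtsl1 0.71, Adamts15 0.85, Fn1 1.67, Sparc 1.52, Fbn1 1.59, Dcn 1.795, Lum 1.11 and Bgn 1.29. Depth limits Lum, Adamts15, Cpxm1 and Adamtsl1 most, at 6 to 20 reads in original-cross replicate 1 and 13 to 16 reads in extra-cross replicate 1. Serpinf1 follows at 21 reads in each of these libraries.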
